A study of Mus musculus with 18 samples.

Results

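Transcripts of 10 genes of the pericellular and interstitial matrix were followed in mouse embryonic fibroblasts (MEFs), cultured connective-tissue cells that derive from embryos. They were 7 small leucine-rich proteoglycans (Dcn, Lum, Bgn, Fmod, Ogn, Aspn and Prelp), the large proteoglycan versican (Vcan), the hyaluronan synthase Has2 and the hyaluronan receptor Cd44. The list is one of gene names and uses no threshold on a measured value, although it was drawn up with earlier results of these data known. All 10 were found among the 55487 gene identifiers of the count table. All 10 also passed the filter on low counts that left 13865 genes for testing.

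A proteoglycan is a protein that carries one or more glycosaminoglycan chains, such as chondroitin, dermatan or keratan sulphate. The small leucine-rich members bind collagen fibrils outside the cell and help to set fibril width and spacing, and several of them also bind growth factors. Versican does not line fibrils. It attaches, together with link proteins, to hyaluronan, a long sugar polymer. HAS2 makes hyaluronan at the plasma membrane, and CD44 holds it at the cell surface. The decorin protein (Dcn) is typical of quiescent, collagen-rich connective tissue, whereas versican and hyaluronan form a loose, hydrated coat around moving and dividing cells.

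MEFs were kept for 24 h in medium containing fetal bovine serum with 0 (control), 10 or 30 µM uracil, the base that uridine phosphorylase-1 releases from uridine. Each dose had 6 libraries of total RNA, and the labels number them 1 to 6 at every dose without saying what a number stands for. Strain, embryo, passage and any genetic change of the cells are not given in the labels, and the study's methods call the 6 per dose biological replicates without saying whether they were separate isolates or separate dishes of 1 culture. The p-values measure the spread between these libraries. The comparisons asked whether uracil changed transcripts of these matrix genes, and how much they varied between numbers.

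Counts assigned to genes ranged from 3963932 to 20775298 per library. Control replicate 1 and 30 µM replicate 6 had the fewest (3963932 and 7392564) and the largest shares of unaligned read pairs (54.2% and 37.9%), and 10 µM replicate 6 came next with 5.24% unaligned. The other 15 libraries had 1.72% to 3.59%. Results are given with all 18 libraries and without these 3. The fibroblast markers Col1a1, Col1a2 and Vim were abundant in every library, and the 9 fibroblast markers summed to between 25590.3 and 29746 CPM in the 15 libraries and up to 57266 CPM in all 18, although Fap was near 0. CPM are read pairs per gene, relative to the TMM-scaled total of the library, on the usual scale of counts per 1 M read pairs assigned to genes.

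Of the 10 genes, 7 have an entry in RefSeq's table of gene starts on GRCm38.p6, and Dcn, Lum and Has2 do not. The stretches of 250 bases before the start of Bgn, Cd44, Fmod and Aspn are shown because they belong to genes that moved together or apart below and share no base with an annotated exon of the gene itself. Bgn and Cd44 varied together, Fmod varied with Lum and Prelp, and Aspn varied with its neighbour Ogn. Each sequence had 1 exact match on GRCm39, where Bgn lies at chrX:72526957-72527206 (plus strand), Cd44 at chr2:102732011-102732260 (minus), Fmod at chr1:133964742-133964991 (plus) and Aspn at chr13:49697669-49697918 (plus). The Aspn window lies within an intron of the longer GENCODE gene model. Capitals mark matches, on either strand, to the letters TATAAA (the TATA box), CCAAT (the box of that name), GGGCGG (GC box), TGANTCA (AP-1 site) or GGAATG (TEAD site).
Bgn: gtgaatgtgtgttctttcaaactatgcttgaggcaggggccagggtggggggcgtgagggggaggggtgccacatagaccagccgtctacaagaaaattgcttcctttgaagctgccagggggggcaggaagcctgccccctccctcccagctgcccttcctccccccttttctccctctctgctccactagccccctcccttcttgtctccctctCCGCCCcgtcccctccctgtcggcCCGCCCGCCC
Cd44: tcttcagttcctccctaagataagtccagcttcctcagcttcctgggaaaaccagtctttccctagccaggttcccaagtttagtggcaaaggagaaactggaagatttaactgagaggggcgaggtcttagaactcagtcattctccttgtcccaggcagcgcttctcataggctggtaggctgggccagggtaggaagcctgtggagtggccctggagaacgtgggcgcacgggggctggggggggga
Fmod: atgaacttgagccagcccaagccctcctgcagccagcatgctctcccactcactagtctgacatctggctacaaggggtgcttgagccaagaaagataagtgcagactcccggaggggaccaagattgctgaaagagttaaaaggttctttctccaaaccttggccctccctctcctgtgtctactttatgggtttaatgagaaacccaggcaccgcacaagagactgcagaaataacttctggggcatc
Aspn: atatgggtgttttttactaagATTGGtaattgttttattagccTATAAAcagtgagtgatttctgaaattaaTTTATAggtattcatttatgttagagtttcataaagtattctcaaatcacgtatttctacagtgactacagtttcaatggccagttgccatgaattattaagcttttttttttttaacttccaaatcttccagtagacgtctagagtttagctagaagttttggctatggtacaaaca

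The Bgn stretch held 3 GC box matches, which begin 34, 10 and 6 bases before the start and of which the last 2 overlap. The Aspn stretch held 2 TATAAA matches, at 207 and 178 bases before the start, and a CCAAT match at 229. TATAAA was also found in the stretch of Ogn, as a pair of overlapping matches, and in none of the other 5 genes. Of all 32851 promoters of this length, 12.4% held TATAAA, 33.8% held CCAAT, 32.7% held GGGCGG, 6.75% held TGANTCA and 12.6% held GGAATG. The Fmod and Cd44 stretches held none of the 5. Bases differed in makeup as well, with 64.4% G or C in Bgn and 30% in Aspn.

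Several of the genes are neighbours. Dcn (chr10:97315275-97358155, GRCm39) and Lum (chr10:97400990-97408577) lie 42.8 kb apart on the plus strand. Aspn (chr13:49697609-49721057) and Ogn (chr13:49761349-49780412) have the osteomodulin gene Omd between them. Prelp (chr1:133837335-133857971, minus strand) and Fmod (chr1:133964992-133976015, plus strand) lie 107.0 kb apart. Vcan (chr13:89803431-89890814), Has2 (chr15:56528342-56557999), Cd44 (chr2:102641486-102732010) and Bgn (chrX:72527208-72539541) stand alone. All 10 are protein-coding genes, and counts are summed over their exons and transcript forms.

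Biglycan (Bgn) was the most abundant of the 10 transcripts per length. In the 5 control libraries other than replicate 1, its level was 151 ± 21.5 RPKM (SD, n = 5), where RPKM is CPM per kilobase of annotated exon. Its lowest control library, at 133 RPKM, lay above the highest of every other gene. Asporin (Aspn, which binds collagen and TGF-beta) followed at 43.4 ± 9.42 RPKM and osteoglycin (Ogn, also called mimecan) at 34.1 ± 5.18. Aspn and Ogn overlapped, with 35.2 to 57.9 and 28.9 to 42.1 RPKM. Has2 had 28.0 ± 6.74, Cd44 had 27.2 ± 4.76 and Vcan had 27.0 ± 3.98 RPKM (n = 5 each), and these 3 and Ogn overlapped one another.

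Fibromodulin (Fmod, a collagen-binding proteoglycan with keratan sulphate chains) came next at 16.01 ± 4.88 RPKM, and decorin (Dcn) at 9.59 ± 5.14, again overlapping. Lumican (Lum, best known from the collagen lattice of the cornea) was at 0.479 ± 0.421 RPKM and Prelp (a basement-membrane anchor) at 0.365 ± 0.357. Their highest values over all 6 control libraries, 1.93 and 1.34 RPKM, lay below the lowest of the other 8 genes, 4.96 RPKM in Dcn. With the length of the longest coding transcript in place of all exons, Bgn reached 340.0 RPKM in the same 5 libraries and some neighbours changed places. Vcan then had 35.4, Cd44 32.6 and Has2 28.0 RPKM, and Dcn had 20.1 and Fmod 19.0. With control replicate 1 included, Fmod lay above Dcn again (20.6 and 19.4 RPKM).

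**Figure D1:**
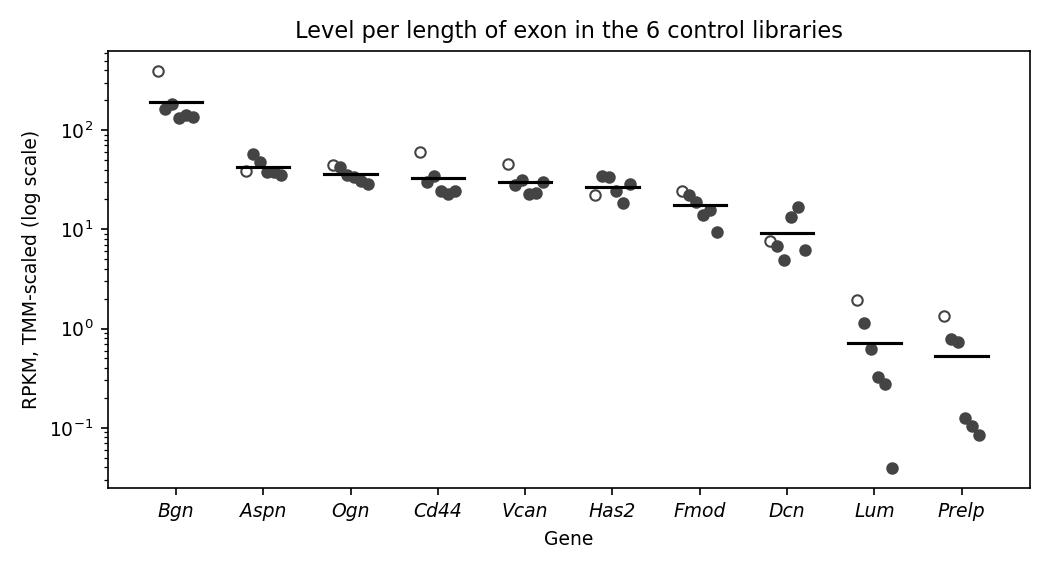
Level per length (TMM-scaled RPKM, log axis) of the 10 genes in the 6 control libraries, 1 point per library and a bar at the mean of the 6, with control replicate 1 as an open point. Bgn lies above the other 9 genes in every library, and Lum and Prelp lie below the other 8.

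The numbers, rather than the doses, separated the libraries for most of these genes. In a model with dose and number, 7 of the 10 differed between numbers (edgeR quasi-likelihood F test, Benjamini-Hochberg adjusted over 13865 genes), against 12.6% of all genes tested. These 7 were Dcn, Lum, Fmod, Prelp, Has2, Ogn and Aspn. Without the 3 libraries that stand apart, 7 of 10 passed again, against 20.8% of 13888 genes. Vcan and Cd44 then passed in place of Ogn and Aspn. Dcn, Lum, Fmod, Prelp and Has2 passed in both.

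Decorin (Dcn) was highest in numbers 4 and 5. Number 5 had 218, 225 and 185 CPM (control, 10 and 30 µM). Number 4 had 173, 173 and 176 CPM. Number 3 stood at 64.6, 63.9 and 67.8 CPM and number 2 at 87.8, 94.1 and 87.8 CPM. For number 1 the values were 99.1, 117 and 109.7 CPM, and for number 6 they were 80.9, 78.3 and 40.5 CPM. The 6 libraries of numbers 4 and 5 thus lay above all 12 others at every dose. The mean of number 5 was 3.20-fold that of number 3 (209 ± 21.1 against 65.4 ± 2.06 CPM, SD, n = 3 each; adjusted p for number 6.61e-06, edgeR).

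Has2, the main hyaluronan synthase of fibroblasts, went the other way. Number 2 had 173, 166 and 172 CPM (control, 10 and 30 µM). Number 3 had 169, 178 and 166 CPM. Number 5 had 92.6, 94.5 and 87.7 CPM, the lowest 3 of the 18 libraries. Numbers 1, 4 and 6 lay between, at 109.9 to 144 CPM. Number 3 was 1.87-fold higher than number 5 (171 ± 5.95 against 91.6 ± 3.51 CPM, SD, n = 3 each; adjusted p 1.51e-05, edgeR), and the 6 libraries of numbers 2 and 3 lay above the 12 others.

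Versican (Vcan) shared with Has2 the higher values of numbers 2 and 3 over 4 and 5. It stood at 463, 469 and 475 CPM in number 2, with 518, 478 and 465 CPM in number 3. Number 4 had 373, 371 and 400.3 CPM and number 5 had 382, 398 and 346 CPM, so these 6 libraries lay below the 6 of numbers 2 and 3. It departed from Has2 in the other numbers. The 2 libraries of number 1 among the 15 had 423 and 444 CPM, above numbers 4 and 5, where Has2 in number 1 was close to number 4 (119 and 120.3 CPM). Control replicate 6 had 495 CPM, the highest mean of Vcan by number in the 15 libraries, where Has2 had 141 CPM. The highest values, 738 to 758 CPM, were in control replicate 1 and 10 µM replicate 6, of those left out. The adjusted p for number was 0.0736 with all 18 libraries and 4.95e-05 without the 3.

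Lumican varied most. Number 1 had 12.4, 10.2 and 9.50 CPM (control, 10 and 30 µM) and number 2 had 7.29, 9.79 and 6.43 CPM. Number 3 had 3.65 to 3.96 CPM. Numbers 4 and 5 had 1.76 to 2.89 CPM. In number 6 it had 0.252, 0.765 and 0.464 CPM, which rested on 3 to 11 read pairs per library, or 17 in all against 409 in number 1. The ratio of the pooled rates of numbers 1 and 6 was 19.5, with an exact 95% interval of 12.002 to 33.7 that covers counting error only. The adjusted p for number was 2.02e-07 (edgeR), and number 6 did not overlap with any other number.

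Fibromodulin and Prelp shared part of that order. Fmod had 95.9, 85.1 and 92.8 CPM in number 1 and 36.8, 41.6 and 44.3 CPM in number 6, a 2.23-fold difference of the means (91.3 against 40.9 CPM; adjusted p 5.02e-06, edgeR). Its other 12 libraries had 55.2 to 87.4 CPM, so number 6 lay below them all. Prelp had 3.26 to 9.43 CPM in the 9 libraries of numbers 1 to 3 and 0.589 to 2.32 CPM in the 9 of numbers 4 to 6, with no overlap (adjusted p 0.000164, edgeR). The lowest Prelp value rested on 7 read pairs.

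Osteoglycin (Ogn) and asporin (Aspn) moved together, and their calls by number depended on which libraries were kept. Ogn was lowest in 30 µM replicates 5 and 6 (121 and 84.9 CPM) and had 164 to 274 CPM in the other 16 libraries. Aspn was lowest in the same libraries (75.7 and 52.9 CPM) and had 99.4 to 174 CPM in the others. The adjusted p for number was 0.0225 for Ogn and 0.0288 for Aspn with all 18 libraries, and 0.128 and 0.0688 without the 3. When single libraries were left out, Aspn did not pass in 9 of 18 cases (adjusted p up to 0.0818), which were replicate 2 or 5 of any dose, control replicates 3 and 4 and 10 µM replicate 6. Ogn did not pass in 2, without 30 µM replicate 2 or 5 (up to 0.0515). 30 µM replicate 5 also had the largest share of pairs under the alignment quality limit, 13.1% against 4.79% to 11.7% in the other 17 libraries, and the part of this in the low values was not tested.

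Biglycan (Bgn) and Cd44 were highest in the libraries that stand apart. Bgn reached 2685 CPM in control replicate 1, and its values in number 6 were 1648 CPM at 10 µM and 1987 CPM at 30 µM. The other 15 libraries had 852 to 1229 CPM. Cd44 had 403, 274 and 238 CPM in those 3 and 129 to 232 CPM in the other 15. The part of the unaligned reads in these values was not tested. Without the 3, Cd44 differed between numbers (adjusted p 0.00275), with 204 ± 25.9 CPM in number 3 and 147 ± 15.8 in number 5 (SD, n = 3 each). Bgn did not pass in either fit (adjusted p 0.363 and 0.175), and in the 15 libraries the means of its highest and lowest number were 1082 and 903 CPM.

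**Figure D2:**
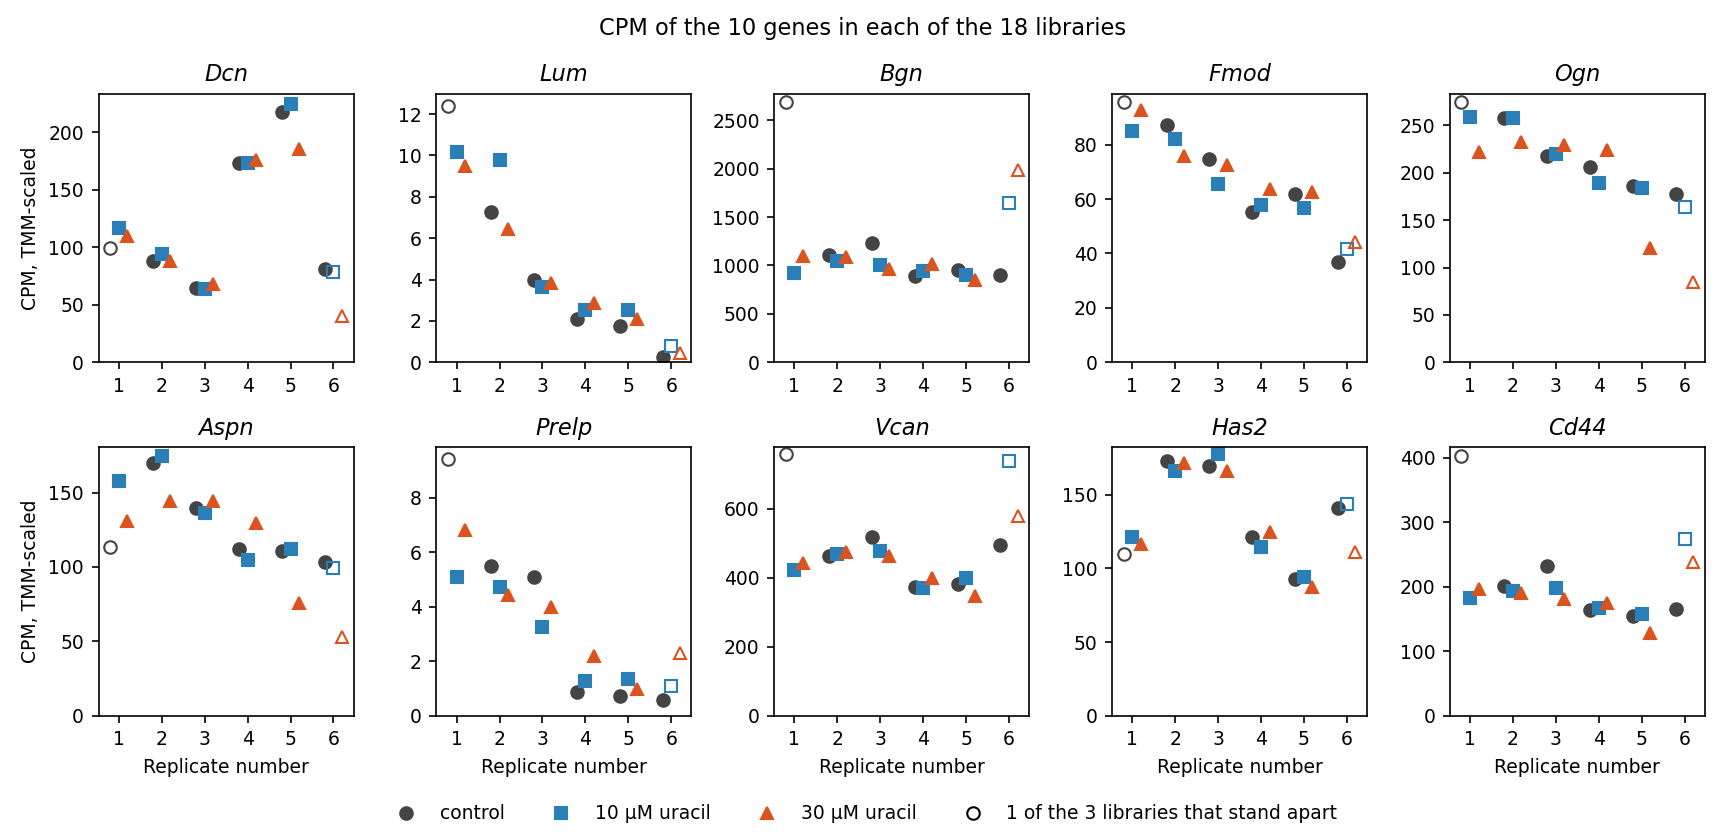
CPM of each gene (linear axes from 0) in all 18 libraries against replicate number, with circles for control, squares for 10 µM and triangles for 30 µM uracil, and open symbols for control 1, 10 µM 6 and 30 µM 6. Dcn is high in numbers 4 and 5 at all 3 doses, Has2 is high in 2 and 3, and Lum, Fmod and Prelp are high in 1.

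In the 15 libraries, number took up 99.0% of the variance of log2 CPM of Dcn, 98.7% of Has2, 98.0% of Lum, 94.9% of Fmod and 92.5% of Prelp. It took up 89.6% in Vcan, 76.9% in Cd44, 75.9% in Aspn, 70.6% in Ogn and 53.5% in Bgn, beside a median of 51.9% over all genes tested. Dose took up 0.718% (Has2) to 19.0% (Lum), beside a median of 10.6%. With all 18 libraries, number took up 61.1% in Vcan, 46.6% in Cd44 and 35.0% in Bgn, beside a median of 40.8%, so that Bgn lay below the median, and 65.4% (Ogn) to 96.5% (Lum) in the other 7. The share of dose was then 0.966% in Lum and at most 12.1% (Ogn), beside a median of 7.91%. These shares are descriptions from 6 numbers and 3 doses and do not add up, since number 6 had 1 of the 15 libraries and number 1 had 2.

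Across the same 15 libraries the 10 genes fell into sets of like pattern, given here as Pearson r of log2 CPM. Ogn and Aspn had r = 0.97, Lum and Fmod 0.96, Fmod and Prelp 0.88, Bgn and Cd44 0.88, and Vcan and Has2 0.85. Dcn had a negative r with all 9 others in these 15 libraries, which reached -0.91 with Vcan and -0.90 with Has2. It was -0.23 with its neighbour Lum, whereas the neighbours Ogn and Aspn, and Fmod and Prelp, were among the 3 most alike pairs. With all 18 libraries, r was 0.31 for Vcan and Has2 and -0.67 for Dcn and Vcan, and the r of Dcn was above 0 with Ogn (0.13), Lum (0.11), Fmod (0.055) and Aspn (0.050). Ogn and Aspn then had 0.93, and Fmod and Prelp had 0.83. The latter lay below pairs that are not neighbours, Bgn and Cd44 (0.93), Vcan and Cd44 (0.92) and Bgn and Vcan (0.87). All values come from the same libraries, so the pairs share depth and number.

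**Figure D3:**
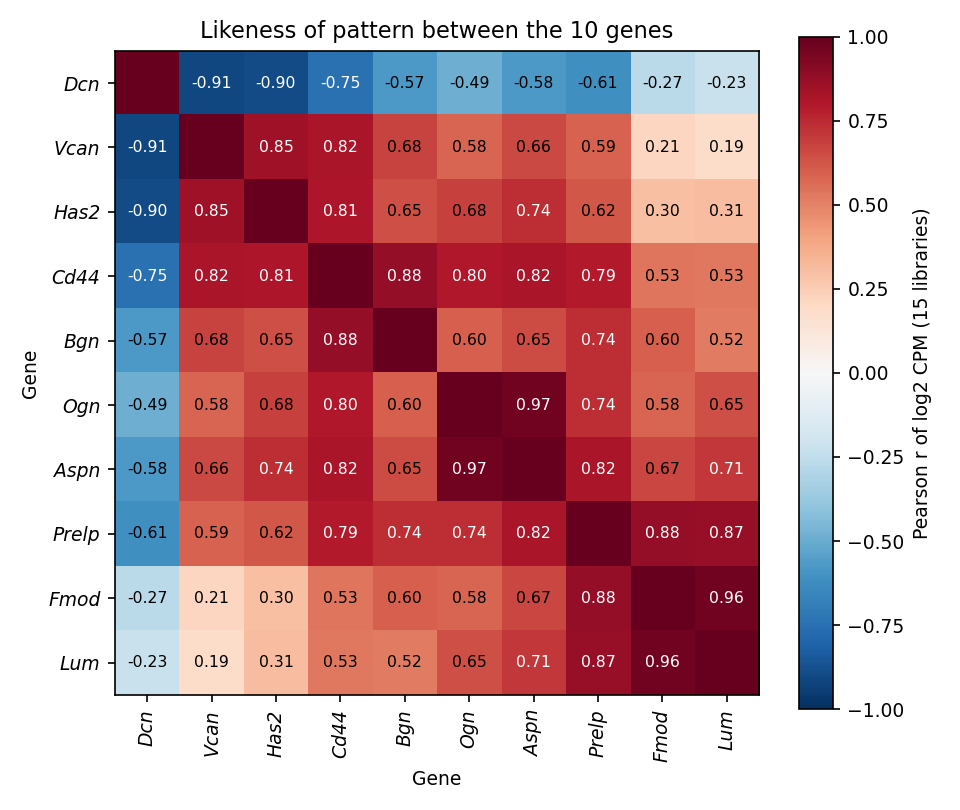
Pearson r of log2 CPM between each pair of the 10 genes over the 15 libraries, on a colour scale from -1 to 1. Dcn is negative with the 9 other genes, though not with Ogn, Lum, Fmod and Aspn when all 18 libraries are used, and the highest values are for Ogn with Aspn (0.97) and Lum with Fmod (0.96).

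Likeness to other genes was read in the same 15 libraries. Among the 13044 genes with at least 1 CPM on average, those most like Dcn were Pkhd1l1, the complement protease gene C1s1 and the secreted Wnt antagonist Sfrp1 (r = 0.97 each). Lum and Fmod were most like Sned1 (r = 0.97 and 0.98) and both had Cxcl15 among their 3, with Islr for Lum and the cytokine co-receptor Il6st for Fmod. Prelp was most like Lrrtm1, Cdo1 and Svep1 (r = 0.97 to 0.98). Has2 was most like Dusp5, the growth factor gene Ereg and Fam13b (r = 0.96 to 0.97), and Vcan was most like Fmn1, Mfap3l and Gm42778 (r = 0.92 to 0.93). Ogn had Sdcbp, Gnai3 and Aspn (r = 0.97 to 0.98), and Aspn had Runx1t1, Ufm1 and Homer1 (r = 0.97 each). Bgn had Dap, Irs1 and S100a11 (r = 0.94 to 0.95), and Cd44 had Nid1, which encodes a basement-membrane linker, with Calcrl and S100a11 (r = 0.93 to 0.94). With all 18 libraries these r were lower for some, down to 0.33 for Cd44 and Calcrl, 0.55 for Has2 and Fam13b and 0.61 for Aspn and Runx1t1.

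Markers of another cell type moved with number as well. The 6 mesothelial markers (Upk3b, Upk1b, Msln, Wt1, Lrrn4 and Krt19) summed to 118 to 168 CPM in the 9 libraries of numbers 1 to 3 and to 275 to 401 CPM in the 9 of numbers 4 to 6. Number 5 had the highest sums, 362 to 401 CPM, and the highest Dcn, but number 6, with 275 to 304 CPM, had low Dcn. Msln itself averaged 104.5 CPM in number 5 and 29.8 in number 2. The 5 chondrocyte markers summed to 23.2 to 54.1 CPM in numbers 1 to 3 and 8.10 to 21.4 CPM in numbers 4 to 6. The highest sum in the 15 libraries was 34.9 CPM. Over these 15, the marker Col2a1 averaged 26.2 CPM in number 1 and had 4.12 in control replicate 6, the only library of number 6 there. Sox9 averaged 7.51 CPM over all libraries (adjusted p for number 0.356, edgeR), and its call depended on which libraries were kept. Comp, Matn1 and Col9a1 were near or at 0 (0.373, 0.00268 and 0 CPM on average), so the sums are mainly Col2a1 and Sox9. Of the 8 fibroblast markers tested, Col3a1, Pdgfra, Pdgfrb and S100a4 differed between numbers with all libraries. In the 15 libraries these were lowest in number 6, which is there control replicate 6 alone (Pdgfrb had 130 CPM in it and averaged 238 in number 2). Col1a1 was highest in number 6 (8311 CPM, against 6607 in number 1). With all libraries, Col1a1, Col1a2, Vim and Thy1 had adjusted p of 0.287, 0.896, 0.325 and 0.293 (edgeR). The calls of Vim and Thy1 depended on which libraries were kept. Over the 15 libraries, Vim averaged 5933 CPM in number 1 and 5052 in number 5. Thy1 averaged 48.3 CPM in number 4 and 39.9 in number 5. Summed over their 4 or 5 markers, epithelial genes had 1.92 to 22.8 CPM over all libraries and endothelial genes 7.34 to 12.03. Macrophage genes had 1.39 to 5.73, skeletal muscle genes 0.464 to 1.73 and adipocyte genes 5.88 to 14.3 CPM. Neural markers had 234 to 328 CPM and the smooth muscle genes of myofibroblasts 3870 to 5396 CPM. Some single genes of these lists also differed between numbers. With all libraries, Myh11 and Acta2 of the myofibroblast list passed (adjusted p 2.05e-08 and 0.0438, edgeR). Fabp4 and Pparg of the adipocyte list passed too (0.0453 and 0.0196, edgeR), although the call of Fabp4 depended on which libraries were kept. Myh11 averaged 12.3 CPM in number 1 and 1.77 in number 5 of the 15 libraries. Tagln, Cnn1, Tubb3 and Map2 had 0.319, 0.374, 0.109 and 0.338 with all libraries, and their calls depended on which libraries were kept. The part of these cell types in the differences between numbers was not tested, and in bulk RNA fewer cells of a type cannot be told from less RNA per cell.

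No change with uracil passed the threshold in any of the 10 genes. In 10 µM against control, 30 µM against control, 30 µM against 10 µM and any difference among doses, 0 of 10 passed (edgeR, adjusted p under 0.05), as did 0% of the 13865 genes. None of the 10 had an unadjusted p under 0.05 either, beside 0.692%, 4.29%, 2.33% and 1.53% of all genes in the same 4 tests. DESeq2 and limma voom with quality weights called 0 of the 10, and 0 genes in all, in each. The median log2 fold change of the 10 was -0.052 at 10 µM and -0.13 at 30 µM, beside 0.0059 and 0.012 for all genes tested, and without the 3 libraries it was 0.093 and -0.030.

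For decorin (Dcn), the lowest, median and highest values were 64.6, 93.5 and 218 CPM in control, 63.9, 105 and 225 CPM at 10 µM and 40.5, 98.7 and 185 CPM at 30 µM. The 3 doses thus covered one another. The log2 fold change was 0.052 ± 0.40 (SE, n = 6 against 6 in the fit of 18 libraries) at 10 µM and -0.11 ± 0.40 at 30 µM, and the 95% intervals ran from -0.79 to 0.90 and from -0.96 to 0.73. For Has2 they were 92.6, 131 and 173 CPM in control, 94.5, 132 and 178 CPM at 10 µM and 87.7, 121 and 172 CPM at 30 µM. Its log2 fold change was 0.016 (-0.38 to 0.41) at 10 µM and -0.054 (-0.45 to 0.34) at 30 µM.

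Versican (Vcan) had 373, 479 and 758 CPM in control, 371, 446 and 738 CPM at 10 µM and 346, 454 and 581 CPM at 30 µM (lowest, median and highest). Its log2 fold change was -0.053 at 10 µM, with a 95% interval of -0.43 to 0.33, while at 30 µM it was -0.14 (-0.52 to 0.24). Biglycan (Bgn) had 896, 1034 and 2685 CPM in control, 898, 975 and 1648 CPM at 10 µM and 852, 1053 and 1987 CPM at 30 µM. Its log2 fold change was -0.27 (-0.84 to 0.30) at 10 µM and -0.15 (-0.72 to 0.42) at 30 µM. Without the 3 libraries it was -0.087 (-0.27 to 0.097) and -0.030 (-0.21 to 0.15). These were the narrowest intervals among the 10 genes in that fit, which has dose as its only term.

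Cd44, Ogn and Aspn had log2 fold changes of -0.25 ± 0.21, -0.24 ± 0.21 and -0.14 ± 0.22 (SE) at 30 µM against control. Without the 3 libraries these were -0.087 ± 0.12, -0.031 ± 0.17 and -0.032 ± 0.20. Fmod stood at 0.011 ± 0.22 at 30 µM. The intervals were widest for the scarce genes: Lum at 30 µM ran from -1.42 to 1.59 and Prelp from -1.26 to 1.39. These intervals include the spread between numbers, since the model has dose as its only term.

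**Figure D4:**
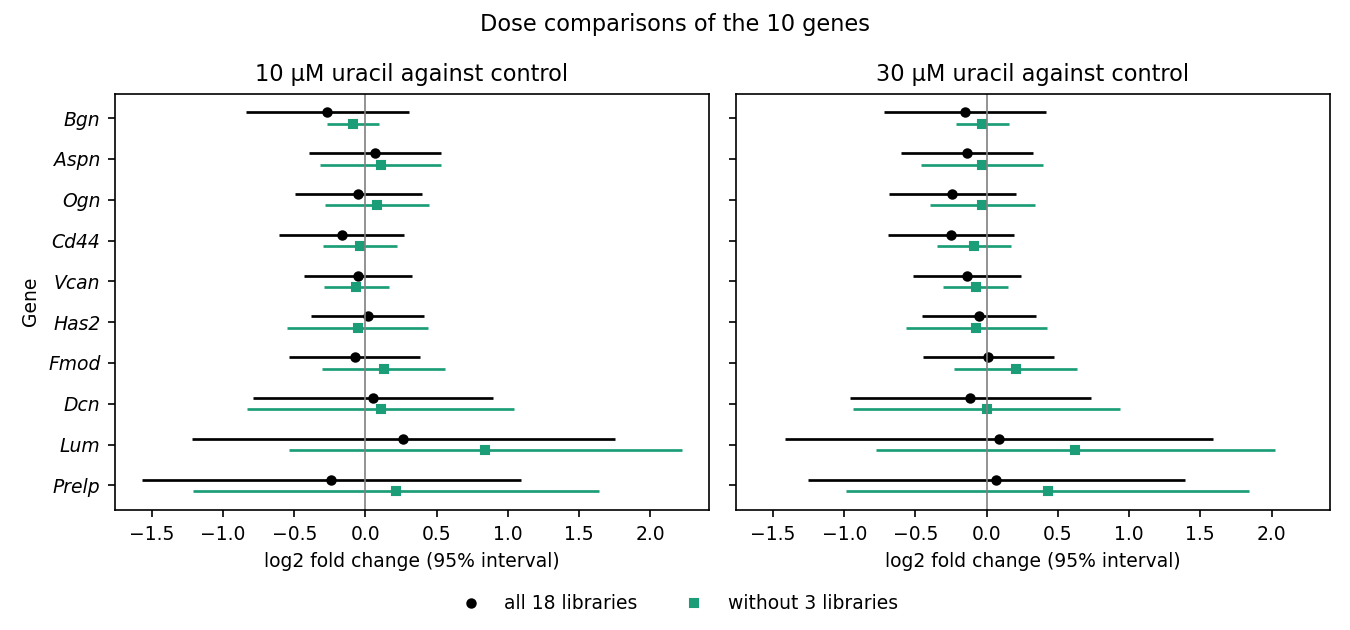
Log2 fold change and 95% interval of the 10 genes, ordered by level, for 10 µM (left) and 30 µM (right) uracil against control, with circles for all 18 libraries and squares for the 15 left after removal of control 1, 10 µM 6 and 30 µM 6. Every interval crosses 0, and those of Lum and Prelp are the widest.

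Genes that act with the 10 were read from lists of the same pathways. No listed gene passed in any dose comparison. The counts by number below stand beside 12.6% of all genes with 18 libraries and 20.8% without the 3. By number, 2 of 7 measured other small leucine-rich proteoglycans passed, namely podocan (Podn, 8.39 CPM in number 5, 3.20 in number 6) and Ecm2. Without the 3 libraries the count was 2 again, with Omd (adjusted p 0.0287) in place of Ecm2 (0.114). Tsku, the most abundant of them at 45.0 CPM, had an adjusted p of 0.766. Both measured genes of the hyalectan and link protein list passed in both fits, the link protein gene Hapln1 (5.78 CPM in number 2 and 0.589 in number 6 of the 15 libraries) and aggrecan, Acan (3.36 CPM in number 3 and 1.35 in number 6).

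Of 11 measured genes for hyaluronan synthesis, breakdown and binding, 7 passed by number with all libraries and 8 without the 3. The hyaluronan-degrading Cemip was highest in number 4 (226 CPM) and lowest in number 2 (169 CPM), where Has2 was high. Has1, another hyaluronan synthase, was highest in the remaining library of number 6 (8.41 CPM, against 2.76 CPM in number 1), and Cemip2 was highest in number 2 (125 CPM). Ugdh, which makes the glucuronic acid donor of these chains, differed by 1.28-fold (128 CPM in number 1 and 100.4 in number 6).

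Of 22 genes for chondroitin and dermatan sulphate chains, 6 passed by number with all libraries and 9 without the 3, led by the chain-starting Csgalnact1 (45.4 CPM in number 1 and 26.3 in number 6, 1.73-fold). Dse, the dermatan epimerase, had 178 to 195 CPM between numbers and an adjusted p of 0.685. Of 6 keratan sulphate genes, the same 3 passed in both fits, among them the sulphotransferase gene Chst2 (42.5 CPM in number 1 and 20.1 in number 6). Of 5 proteases that cut proteoglycans, 2 passed with all libraries and 4 without the 3. Adamts1, which cleaves versican, had 267 CPM in number 1 and 161 in number 4. Of 14 cell-surface and other proteoglycans, 5 passed with all libraries and 8 without the 3, with syndecan-2 (Sdc2) at 219 CPM in number 2 and 136 in number 5 and Sdc4 at 313 to 364 CPM with an adjusted p of 0.752. The means by number for these lists are over the 15 libraries also where the call is from all 18, of which number 6 has 1 (control) and number 1 has 2. All these p-values are from edgeR with adjustment over all genes.

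Overlapping genes limit some of these counts, since the strand setting of the counting was not given in the sources used here. Ogn and Aspn lie within Cenpp, a kinetochore gene on the other strand, with which they share 1155 and 267 bases of exon. Cenpp had 7.52 CPM on average. Has2 shares 400 bases with the antisense Has2os (0.781 CPM), Prelp shares 350 with Gm15851 (0.00332 CPM), and Cd44 shares 207 with Gm57471. Dcn, Lum, Bgn and Fmod overlap no other gene in this annotation.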

How the data were processed

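Total RNA of MEFs was sequenced as stranded libraries with ribosomal RNA depleted. The authors deposited raw counts of read pairs per Ensembl gene for 18 libraries. The submitters' processing notes name FastQC, HISAT2, SAMtools 1.2 and HTSeq and the build GRCh38, a human assembly that does not match the mouse identifiers. The annotation release and strand setting are not given in the sources used here. The study left out one vehicle and one 30 µM sample for human RNA, which the labels do not identify, so all 18 were kept. Control replicate 1 and 30 µM replicate 6 had the largest unaligned shares (54.2% and 37.9%). Whether they are the samples that the study left out was not tested. Names came from GENCODE M39 on GRCm39 (51731 of 55487 identifiers). Pairs outside genes were kept out of library sizes, namely no feature (6.85% to 15.5%), ambiguous (0.503% to 1.64%), low quality (4.79% to 13.1%), unaligned (1.72% to 54.2%) and multiply aligned (5.59% to 20.2%).

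The tests were run on these counts with edgeR 4.0.16 under R 4.3.3 (filterByExpr, TMM, robust quasi-likelihood fit with dose as the only term, all 18 libraries). Tests were two-sided, or F tests without direction, with Benjamini-Hochberg adjustment over all genes and a threshold of 0.05. Number was tested in an additive model with dose. Log2 CPM used a prior count of 2. RPKM divides TMM-scaled CPM by exon length. DESeq2 1.42.0, limma 3.58.1, other scalings and filters, the number as a block and leaving out libraries were alternatives. The scripts were tested on simulated data. The 10 genes, the pathway and marker lists and the 3 libraries left out were chosen with earlier results of these data known. All 10 genes are named, with the 3 genes of highest mean or smallest p for number per list and the 3 most like each gene in pattern.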

Additional observations from a re-analysis of the deposited data

Results flagged for a closer look

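Within each dose, the highest and lowest of the 6 libraries were compared with the nearest other library, as the gap divided by the range, for each of the 10 genes. This gap passed Dixon's 95% critical value for 6 libraries in 6 of 30 groups, and chance gives about 1 in 20 groups, or 1.5 here. The values were Bgn at 2685 CPM in control replicate 1 (others 896 to 1229), at 1648 CPM in 10 µM replicate 6 (others 898 to 1049) and at 1987 CPM in 30 µM replicate 6 (others 852 to 1099.9). They also were Vcan at 738 CPM in 10 µM replicate 6 (others 371 to 478), Cd44 at 403 CPM in control replicate 1 (others 155 to 232) and Cd44 at 274 CPM in 10 µM replicate 6 (others 158 to 198). All 6 were high values in the 3 libraries with the most unaligned pairs, and the part of that in them was not tested. The groups are not independent, since the genes share libraries.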

How the results depend on the processing

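No gene of the 10 passed in a dose comparison under any alternative. By number, 5 to 10 of the 10 passed (DESeq2 8, voom 10, library totals 6, no filter 6, at least 10 counts in every library 5 of 8 tested, 5 to 10 when leaving out each library, with 10 without control replicate 6). Dcn, Fmod and Has2 passed in every setting, and Lum and Prelp in all in which they were tested. Over all genes the count by number was 1745, and 5879 with voom, 2989 with DESeq2, 3498 without control replicate 1, 3271 without control replicate 6, 3287 without control 1 and 30 µM 6, 2890 without the 3 libraries and 2755 in numbers 2 to 5.

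The fold changes below did not pass in any setting, and their sign turned as follows; the cause was not tested. At 10 µM (log2 fold change), without the 3 libraries Fmod was 0.13, Ogn 0.081, Prelp 0.21 and Has2 -0.055. Without control 1 and 30 µM 6, Bgn was 0.082, Fmod 0.035, Ogn 0.022, Prelp 0.068, Vcan 0.11, Has2 -0.033 and Cd44 0.087. With voom, Fmod was 0.073, Ogn 0.048, Prelp 0.29 and Has2 -0.0052. At 30 µM, Dcn was 0.00015 without the 3 and 0.0030 without the 2, Lum -0.11 and Prelp -0.072 with DESeq2, and Ogn 0.024, Aspn 0.042 and Has2 0.038 with voom.

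Leaving out 1 library each gave, at 10 µM, Aspn -0.032 to 0.18, Bgn -0.42 to 0.076, Cd44 -0.28 to 0.082, Dcn -0.20 to 0.32, Fmod -0.20 to 0.033, Has2 -0.075 to 0.10, Lum -0.095 to 0.63, Ogn -0.12 to 0.020, Prelp -0.51 to 0.069 and Vcan -0.21 to 0.10. At 30 µM it gave Aspn -0.22 to 0.00066, Bgn -0.36 to 0.19, Cd44 -0.33 to 0.0013, Dcn -0.32 to 0.15, Fmod -0.12 to 0.12, Has2 -0.14 to 0.035, Lum -0.32 to 0.46, Ogn -0.31 to -0.093, Prelp -0.26 to 0.38 and Vcan -0.22 to 0.013.

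With the replicate number as a block, 0 of 10 genes passed in any dose comparison, and 0 genes in all. Of 18 pairs of libraries with one number, 16 had deviations from their dose mean that correlated above 0.1 (from -0.10 to 0.71). Among the libraries of the other doses, 14 of 18 libraries correlated best with one of their own number. This is a hint from the data and not from the labels. For Dcn at 30 µM (fold change -0.14 with the block), the block took the standard error from 0.40 to 0.11. With the block, the standard error of the Has2 fold change at 30 µM was 0.061, that of Lum 0.13 (fold change 0.00090, interval -0.28 to 0.28, against a standard error of 0.71 without the block), and the unadjusted p of Ogn was 0.0372 (adjusted 0.656). With the block and without the 3 libraries Fmod was -0.017 and Prelp -0.019 at 30 µM and Has2 -0.0061 at 10 µM. With the block in numbers 2 to 5 Fmod was -0.022 and Prelp -0.027 at 30 µM, and Aspn -0.016 and Has2 -0.012 at 10 µM.

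Depth limits Lum in number 6 (3 to 11 pairs per library).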
